A study of Homo sapiens with 8 samples.

Results

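Mitosis separates the copied chromosomes, and 37 genes that carry out its steps were followed here, from entry into mitosis to the splitting of the cell. They were taken by name from the expression table, and all 37 were found among its 29534 gene names. Cells were BEAS-2B, a line of human bronchial epithelium transformed with a virus. One group of 3 RNA libraries came from cells transfected for 12 h with a pcDNA3.1 plasmid carrying JunD, a subunit of the transcription factor AP-1. The other group of 3 came from cells transfected for 12 h with the empty vector. Cigarette smoke extract (CSE) was then applied to both groups for 24 h, so every RNA library is from smoke-exposed, transfected cells. The sources used here do not give its concentration for these cells. A JunD ChIP library and its input library came from cells exposed to 8% CSE for 24 h, with no transfection named. The labels do not say whether the 3 libraries of a group are separate cultures, so p-values measure the spread between these libraries only.

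As background, a cell enters mitosis when cyclin-dependent kinase is switched on by CDC25 phosphatases, while FOXM1 drives transcription of many genes needed in this phase. Spindle microtubules then attach to kinetochores, the protein platforms built on centromeres, and the spindle checkpoint holds the cell until every chromosome is attached. Once it is satisfied, CDC20 activates the anaphase promoting complex, and separase cuts the cohesin that holds the sister chromosomes together. A contractile ring then divides the cell. RNA of most of these genes peaks in G2 and mitosis, so in dividing epithelial cultures their level follows both the share of cells in that phase and the RNA made per cell. In bulk libraries such as these, fewer cells in mitosis and less RNA per cell cannot be told apart.

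The libraries held 15967955 to 29617655 assigned reads, as recovered from RPKM with the smallest non-zero value taken as 1 read. JUND itself was at 70.3, 63.5 and 103 RPKM (assigned reads scaled to exon length and library total) in JunD replicates 1 to 3 and at 13.2, 10.5 and 10.6 RPKM with the empty vector, which checks the labels. Of the epithelial markers, KRT8, KRT18 and KRT7 were abundant, and CDH1, EPCAM, KRT5 and KRT19 stayed below 0.25 RPKM in every library, so the line lacks much of the labelled epithelial profile at the RNA level. The 3 abundant keratins were all called lower with JunD, KRT8 by a log2 fold change of -0.65 (limma adjusted p = 1.45e-04), KRT18 by -0.38 and KRT7 by -0.29. The epithelial list summed to 299.7 to 328 RPKM with JunD and 403 to 440.2 RPKM in the controls. Summed markers of endothelial, ciliated and secretory cells were below 1 RPKM in every library. The summed fibroblast list lay at 2.97 to 3.52 RPKM with JunD and 6.69 to 8.25 RPKM with the empty vector. The leukocyte list summed to 158 to 187 and 36.9 to 41.4 RPKM, nearly all of it CD68, while PTPRC, the defining leukocyte gene, was at or below 0.00807 RPKM. The part of these differences in the results below was not tested.

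Mitotic genes were lower with JunD at every step, though not every gene was. All 37 passed the filter of a mean of 1 RPKM, and 30 of them (81.1%) were called lower and 0 higher, by limma on log2(RPKM + 0.5) at a Benjamini-Hochberg adjusted p below 0.05 over all genes tested. Over the same 13379 genes, 14.7% were called lower and 31.5% higher. In 31 of the 37, every JunD library lay below every empty-vector library, against 18.5% of all genes tested. The median log2 fold change was -0.60 for the mitotic genes and 0.10 for all genes tested. On this scale the added 0.5 shrinks the fold changes of low genes. Reads of the 37 genes together made up 0.509%, 0.495% and 0.458% of assigned reads in JunD replicates 1 to 3. In empty-vector replicates 1 to 3 they made up 0.753%, 0.775% and 0.795%, all above the JunD libraries. With JunD the mean was 0.487% ± 0.0260 and with the empty vector 0.774% ± 0.0210 (SD, n = 3 each).

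Library scaling shifted the calls of genes with small changes. Median of ratios placed the median of all genes tested at -0.017, quantile normalization placed it at -0.033 and TPM at 0.175. With the first of these scalings 35 mitotic genes were lower, with the second also 35, and in TPM 29 were lower and 1, MAD2L1, was higher. Of the 30 called genes, 27 kept their call in all 14 alternatives, and the exceptions were NUSAP1, SPC24 and CENPE. Leaving out 1 library at a time gave 28 to 34 lower genes, and without JunD replicate 3 the genes BUB3, CDC25B, ESPL1 and SPC25 joined them.

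**Figure D1:**
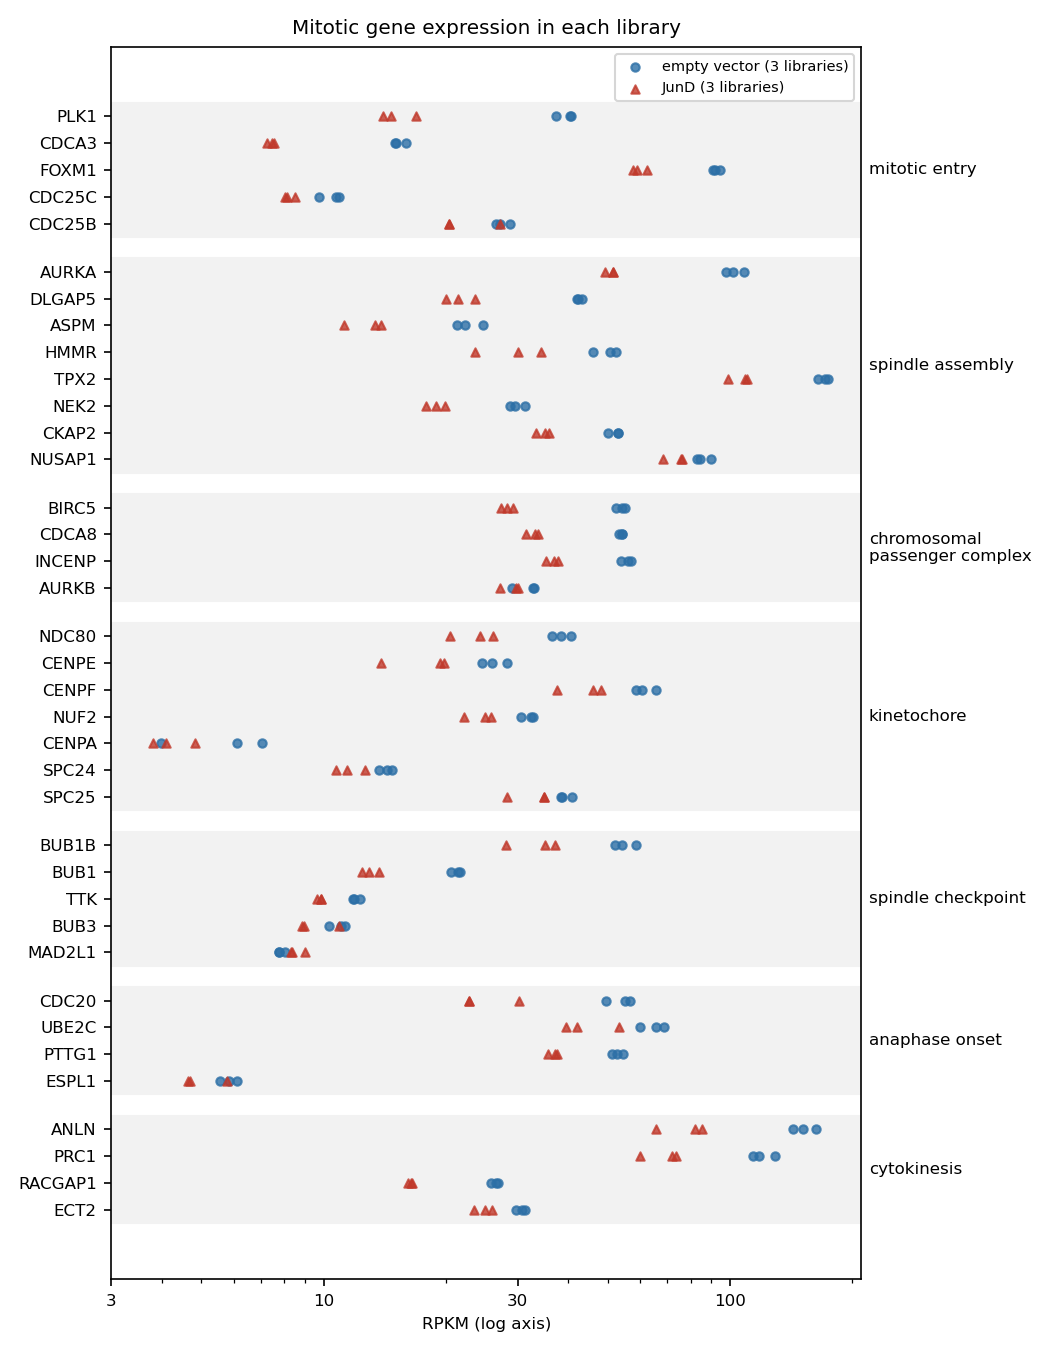
RPKM of each of the 37 mitotic genes on a log axis, by step, with 1 point for each of 3 JunD libraries (triangles) and 3 empty-vector libraries (circles). Triangles lie left of all circles in 31 genes, and MAD2L1 is the gene in which they lie right of all circles.

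**Figure D2:**
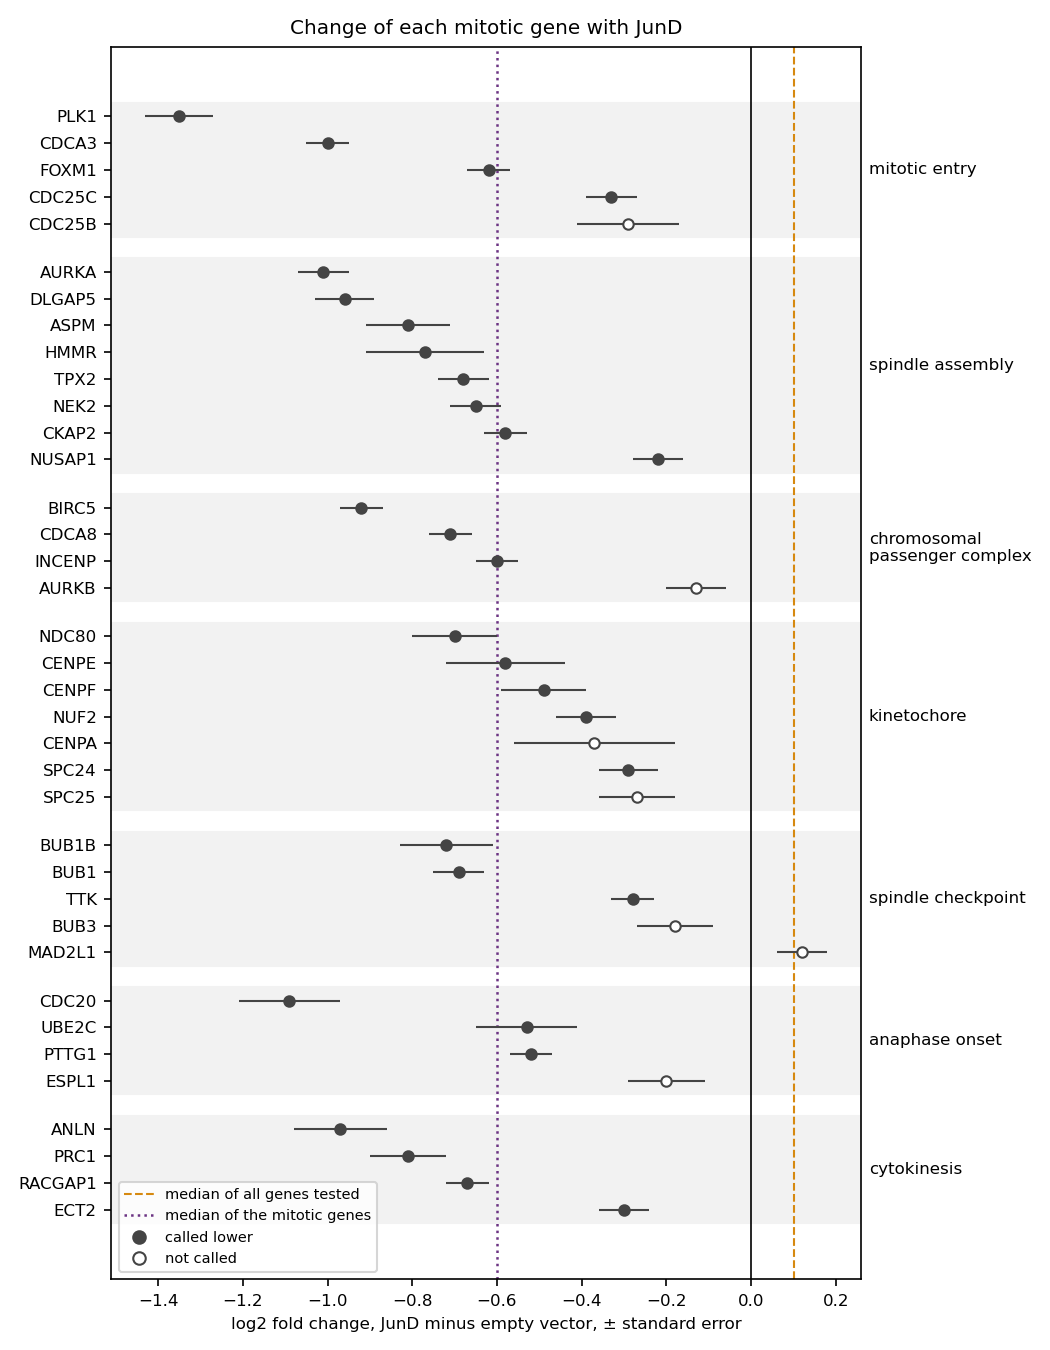
Log2 fold change of each gene, JunD minus empty vector, with its limma standard error, by step. Filled points are the 30 genes called lower and open points the 7 not called; the dotted line marks the median of the mitotic genes at -0.60 and the dashed line that of all genes tested at 0.10.

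Most of the promoters searched held sequence elements already known from genes of G2 and mitosis. The 37 genes were picked by name as genes of mitosis, so the shares below are a description and not independent support. Many genes of G2 and mitosis carry a cell cycle homology region (CHR), with the letters TTTGAA, which the MuvB complex binds, and CCAAT boxes, which NF-Y binds. RefSeq promoters on GRCh38.p14, 250 bases before to 50 after the start, were matched by symbol for 29 of the 37 genes. AURKA, TPX2, BIRC5, UBE2C, TTK, BUB3, FOXM1 and RACGAP1 had no entry. Positions here count from the RefSeq start, which differs by over 1 kb from the outermost exon end in the deposited table for 5 of the 29, by 55378 bases for NUF2, 22941 for SPC25, 21767 for CENPA, 1233 for PLK1 and 1094 for PRC1. On either strand, TTTGAA was present in 20 of 29 promoters (69.0%), against 15.2% of all 35116 promoters in the reference table and 9.39% of those of genes tested. CCAAT was present in 21 of 29 (72.4%), against 34.6% and 37.8%. Both were present in 16 of 29 (55.2%), against 5.90% and 4.16%. The AP-1 element TGANTCA was found in 0 of 29, against 7.71% and 4.43%, which says only that these letters are not in this window. The elements can overlap, as in CDCA8, where both include position -18, and a match is a description, not a bound site. Promoters of the 29 genes had a median GC content of 60.3%, against 65.3% over all genes tested, and the part of this difference in the shares was not tested.

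To show where the elements lie, these are the promoters of the 5 called genes with the largest fold changes among those that hold either motif, 5′ to 3′ on the gene's strand. Capitals mark TTTGAA or its reverse complement TTCAAA, and CCAAT, and positions count from the start, with the first transcribed base as 1 and the base before it as -1.
PLK1, chr16:23678639-23678938, plus strand: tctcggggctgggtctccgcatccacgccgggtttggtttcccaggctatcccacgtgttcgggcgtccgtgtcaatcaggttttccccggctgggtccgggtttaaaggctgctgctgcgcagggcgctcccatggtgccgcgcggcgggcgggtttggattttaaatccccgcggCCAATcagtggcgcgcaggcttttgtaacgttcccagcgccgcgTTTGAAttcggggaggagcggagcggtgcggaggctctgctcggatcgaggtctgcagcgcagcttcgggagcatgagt
CDC20, chr1:43358731-43359030, plus strand: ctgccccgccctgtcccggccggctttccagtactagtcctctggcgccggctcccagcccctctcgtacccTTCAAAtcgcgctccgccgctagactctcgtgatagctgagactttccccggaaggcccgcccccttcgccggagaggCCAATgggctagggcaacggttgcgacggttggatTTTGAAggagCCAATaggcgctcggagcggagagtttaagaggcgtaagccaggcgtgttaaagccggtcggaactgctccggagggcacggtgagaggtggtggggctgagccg
CDCA3, chr12:6851237-6851536, minus strand: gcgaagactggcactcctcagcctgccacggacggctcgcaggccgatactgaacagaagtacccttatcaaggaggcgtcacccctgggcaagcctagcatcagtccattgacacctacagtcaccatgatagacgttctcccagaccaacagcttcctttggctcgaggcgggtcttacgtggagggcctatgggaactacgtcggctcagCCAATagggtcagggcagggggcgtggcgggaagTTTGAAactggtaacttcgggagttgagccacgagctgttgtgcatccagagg
ANLN, chr7:36389612-36389911, plus strand: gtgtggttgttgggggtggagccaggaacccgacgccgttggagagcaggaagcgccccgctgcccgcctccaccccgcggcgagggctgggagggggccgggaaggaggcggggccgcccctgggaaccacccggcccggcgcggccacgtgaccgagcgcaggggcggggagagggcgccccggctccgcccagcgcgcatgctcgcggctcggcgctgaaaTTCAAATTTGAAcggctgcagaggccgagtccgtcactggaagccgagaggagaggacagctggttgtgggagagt
DLGAP5, chr14:55191536-55191835, minus strand: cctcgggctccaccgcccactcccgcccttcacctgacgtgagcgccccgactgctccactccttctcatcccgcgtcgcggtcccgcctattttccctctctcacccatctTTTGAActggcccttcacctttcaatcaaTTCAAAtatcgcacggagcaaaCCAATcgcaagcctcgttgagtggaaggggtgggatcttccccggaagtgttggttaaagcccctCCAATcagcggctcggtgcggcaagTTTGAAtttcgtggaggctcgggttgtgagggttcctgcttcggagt

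In PLK1 the CCAAT box began at -73 and the TTTGAA at -29. In CDC20 a TTTGAA at -65 was flanked by CCAAT boxes at -100 and -55, with a reversed match at -178. In CDCA3 the CCAAT box was at -37 and the TTTGAA at -3, across the start. ANLN held no CCAAT box but a reversed and a forward match side by side, at -26 and -20. DLGAP5 held 3 matches to TTTGAA, at -138, -109 and 4, and CCAAT boxes at -87 and -22. Of the 20 promoters with TTTGAA, 18 had a match beginning within 50 bases of the start, and the median distance of the nearest match was 21 bases. For CCAAT, 10 of 21 had a match within 50 bases, and the median distance was 53 bases. The 4 searched promoters with neither motif were those of CDC25B, CDC25C, CKAP2 and CENPE. CDC25B and CDC25C each have 4 RefSeq entries. Only the entry nearest the outermost exon end was searched, so their other promoters may hold either motif. The genes of these 4 searched promoters had a median log2 fold change of -0.45, against -0.66 for the 16 genes with both motifs. For the 4 genes with TTTGAA alone the median was -0.71, and for the 5 with CCAAT alone -0.52. Called lower were 3 of 4 genes with neither motif and 12 of 16 with both. With TTTGAA alone 4 of 4 were called lower, and with CCAAT alone 4 of 5. MAD2L1, the gene with a positive change, held both motifs, with TTTGAA at 25, after the start. The TTTGAA of NUSAP1, NUF2 and CENPF also lay after the start, at 14, 17 and 41, and these genes were called lower.

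**Figure D3:**
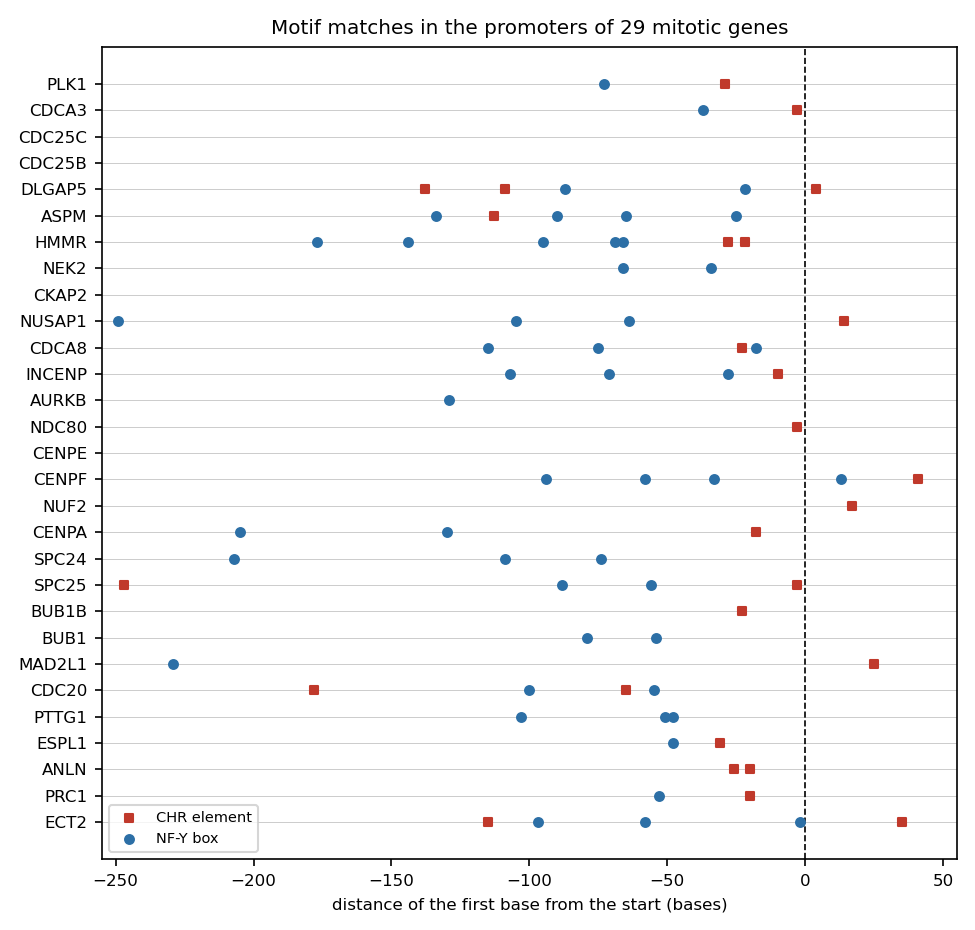
Position of each CHR element (squares) and NF-Y box (circles) in the promoters of 29 mitotic genes, as the distance of its first base from the gene's start in bases. Squares gather near the start, within 50 bases in 18 of the 20 genes that hold one, and circles lie mostly before them.

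Genes of mitotic entry fell in 4 of 5. PLK1, a kinase that acts from entry through to cytokinesis (chromosome 16, 23677656 to 23690367, plus strand, GRCh38), was at 14.0, 14.6 and 16.9 RPKM in JunD replicates 1 to 3 and at 40.5, 40.4 and 37.4 RPKM with the empty vector. It had the lowest log2 fold change of all 37 genes, -1.35 (SE 0.08, limma adjusted p = 5.46e-05), and its JunD mean was 38.6% of the empty-vector mean. Of the PLK1 exon length, 12.9% overlaps other genes, mainly CTD-2196E14.5 on the opposite strand. CDCA3, which promotes the loss of the mitosis inhibitor WEE1, was at 7.47, 7.26 and 7.55 RPKM with JunD against 15.9, 15.1 and 15 RPKM. The groups were far apart, with a log2 fold change of -1.0 (SE 0.05, adjusted p = 3.15e-05). FOXM1, the transcription factor of this phase, was at 57.7, 59.0 and 62.6 RPKM with JunD and 94.3, 91.7 and 90.9 RPKM with the empty vector. On the log2 scale the fold change was -0.62 (SE 0.05, adjusted p = 2.32e-04), and 15.9% of its exon length overlaps other genes, mainly ITFG2 on the opposite strand.

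The CDC25 phosphatases, which activate cyclin-dependent kinase, changed less. CDC25C fell from 10.5 ± 0.645 to 8.22 ± 0.251 RPKM (SD, n = 3 each), and its log2 fold change was -0.33 (SE 0.06, adjusted p = 0.00629). CDC25B was at 20.3, 20.3 and 27.1 RPKM with JunD and 28.8, 27.1 and 26.6 RPKM with the empty vector, and JunD replicate 3 lay among the controls. Its log2 fold change of -0.29 was not called (adjusted p = 0.0830), and without JunD replicate 3 it was -0.43 (adjusted p = 0.00131).

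Genes of spindle assembly fell in 8 of 8. AURKA, a kinase of the spindle poles (chromosome 20, 56369389 to 56392337, minus strand), was at 49.2, 51.6 and 51.5 RPKM with JunD and 98.0, 108 and 102 RPKM with the empty vector. Its log2 fold change was -1.01 (SE 0.06, adjusted p = 4.16e-05). TPX2, which activates AURKA on microtubules and had the highest RPKM of the 37 genes with the empty vector, fell from 169.9 ± 4.45 to 106 ± 6.25 RPKM (SD, n = 3 each), and its log2 fold change was -0.68 (SE 0.06, adjusted p = 2.88e-04). The kinase and its activator were thus both lower in every JunD library than in any control.

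DLGAP5, which stabilises spindle fibres at kinetochores, was at 23.5, 21.4 and 20.0 RPKM with JunD against 42.1, 43.2 and 42.3 RPKM, a log2 fold change of -0.96 (SE 0.07, adjusted p = 1.20e-04). ASPM, a spindle pole protein, went from 22.8 ± 1.76 to 12.8 ± 1.40 RPKM (SD, n = 3 each), with a log2 fold change of -0.81 (SE 0.10, adjusted p = 8.90e-04). HMMR, a microtubule-binding protein, was spread more widely with JunD, at 34.2, 30 and 23.5 RPKM, all below the 46.0, 52.4 and 50.6 RPKM of the controls (log2 fold change -0.77, SE 0.14, adjusted p = 0.00434). NEK2, a kinase that splits the centrosomes, had a log2 fold change of -0.65, and CKAP2, a microtubule-associated protein, of -0.58. NUSAP1, which bundles spindle microtubules, changed least in the group, from 85.7 ± 3.73 to 73.5 ± 4.31 RPKM (SD, n = 3 each). On the log2 scale the fold change was -0.22 (adjusted p = 0.0297), and the call was kept in only 6 of 14 alternatives. It was lost without JunD replicate 2 (adjusted p = 0.0567) and without control replicate 1, 2 or 3 (adjusted p = 0.0626, 0.0791 and 0.0960). TPM (adjusted p = 0.119), quantile normalization (adjusted p = 0.0722), no filter (adjusted p = 0.0525) and the replicate block also lost it.

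The chromosomal passenger complex, which corrects faulty attachments and later marks the site of division, has 4 subunits, and its kinase stood apart from the other 3. BIRC5, or survivin, was at 28.2, 29.3 and 27.3 RPKM with JunD and 54.2, 55.1 and 52.4 RPKM with the empty vector. Its log2 fold change was -0.92 (SE 0.05, adjusted p = 4.60e-05). CDCA8, or borealin, fell from 53.9 ± 0.616 to 32.7 ± 1.12 RPKM and INCENP, the scaffold, from 55.7 ± 1.66 to 36.6 ± 1.21 RPKM (SD, n = 3 each). Their log2 fold changes were -0.71 and -0.60. AURKB, the kinase, was at 29.7, 27.2 and 30 RPKM with JunD and 32.8, 33.0 and 29.1 RPKM with the empty vector, so the groups overlapped. Its log2 fold change of -0.13 was not called (SE 0.07, adjusted p = 0.191). With median of ratios it was called at -0.25 (adjusted p = 0.0179), and with quantiles at -0.21 (adjusted p = 0.0339).

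Kinetochore genes fell in 5 of 7. NDC80, the microtubule-binding subunit of the outer kinetochore, was at 26.1, 24.2 and 20.5 RPKM with JunD and 36.4, 38.4 and 40.7 RPKM with the empty vector. On the log2 scale the fold change was -0.70 (SE 0.10, adjusted p = 0.00157). NUF2, its partner, fell from 31.9 ± 1.16 to 24.3 ± 1.96 RPKM (SD, n = 3 each), and its log2 fold change was -0.39 (adjusted p = 0.00529). The other subunits of the same complex, SPC24 and SPC25, anchor it to the chromosome. SPC24 was at 11.4, 10.7 and 12.6 RPKM with JunD and 14.7, 14.3 and 13.7 RPKM with the empty vector (log2 fold change -0.29, adjusted p = 0.0166). That call was lost without JunD replicate 1 or 2 (adjusted p = 0.050 and 0.0549) or empty-vector replicate 1 or 2 (adjusted p = 0.0634 and 0.0604). SPC25 was at 34.9, 34.9 and 28.2 RPKM with JunD against 38.4, 38.5 and 40.9 RPKM. Its groups did not overlap, but the log2 fold change of -0.27 was not called (adjusted p = 0.0515), and without JunD replicate 3 it was -0.17 (adjusted p = 0.0312).

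CENPF, a large protein of the outer kinetochore, fell from 61.8 ± 3.72 to 44.0 ± 5.65 RPKM (SD, n = 3 each), with a log2 fold change of -0.49 (adjusted p = 0.00853). CENPE, the kinesin that moves chromosomes to the spindle's middle, was at 19.8, 19.3 and 13.8 RPKM with JunD and 24.5, 26.0 and 28.3 RPKM with the empty vector. Replicate 3 was the extreme of each group, and the log2 fold change was -0.58 (adjusted p = 0.0155), or -0.52 without empty-vector replicate 3 (adjusted p = 0.0516). CENPA, the histone that marks centromeres, had the lowest control mean of the 37 genes. It was at 4.09, 3.79 and 4.81 RPKM with JunD and 7.03, 6.13 and 3.98 RPKM with the empty vector, and empty-vector replicate 3 lay among the JunD libraries. The log2 fold change of -0.37 was not called (SE 0.19, adjusted p = 0.167), but without that library it was -0.58 (adjusted p = 0.0134).

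The spindle checkpoint had the lowest share of called genes of the 7 steps, with 3 of 5 lower. BUB1, the kinase that recruits other checkpoint proteins to kinetochores, was at 13.7, 12.4 and 12.9 RPKM with JunD and 20.6, 21.4 and 21.6 RPKM with the empty vector (log2 fold change -0.69, SE 0.06, adjusted p = 2.27e-04). BUB1B, or BUBR1, part of the complex that inhibits CDC20, fell from 55.1 ± 3.35 to 33.4 ± 4.66 RPKM (SD, n = 3 each), by a log2 fold change of -0.72 (adjusted p = 0.00235). Of its exon length, 10.2% is shared, mainly with the read-through gene BUB1B-PAK6. TTK, or MPS1, the kinase at the top of the checkpoint, was at 9.85, 9.60 and 9.86 RPKM with JunD against 11.9, 11.8 and 12.3 RPKM. This small difference exceeded the spread, with a log2 fold change of -0.28 (SE 0.05, adjusted p = 0.00432).

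BUB3, the WD40 protein that carries BUB1 and BUBR1, was at 8.92, 8.84 and 10.9 RPKM with JunD and 11, 11.3 and 10.3 RPKM with the empty vector. JunD replicate 3 lay among the controls, and the log2 fold change of -0.18 was not called (adjusted p = 0.148). Without that library it was -0.27 (adjusted p = 0.00963). MAD2L1, or MAD2, which binds CDC20 while the checkpoint is on, was the only one of the 37 genes with a positive log2 fold change, 0.12 (SE 0.06, adjusted p = 0.127). Its values were 8.36, 8.32 and 8.99 RPKM with JunD and 7.77, 8.02 and 7.74 RPKM with the empty vector, with no overlap. The sign depended on scaling. It was -0.0041 with median of ratios and -0.02 with quantiles, whereas TPM gave 0.19 (adjusted p = 0.0373).

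Genes of anaphase onset fell in 3 of 4. CDC20, which the checkpoint restrains, was at 22.8, 22.8 and 30.2 RPKM with JunD and 56.7, 55.2 and 49.5 RPKM with the empty vector. Its log2 fold change of -1.09 (SE 0.12, adjusted p = 6.80e-04) was the lowest but for PLK1, and JunD replicate 3 was the highest of its group. UBE2C, the enzyme that starts ubiquitin chains for the anaphase promoting complex, was at 42.0, 39.4 and 53.2 RPKM with JunD against 68.7, 65.6 and 60.1 RPKM (log2 fold change -0.53, adjusted p = 0.0107). PTTG1, or securin, which holds separase inactive, fell from 52.8 ± 1.62 to 36.7 ± 1.04 RPKM (SD, n = 3 each), and its log2 fold change was -0.52 (adjusted p = 4.31e-04). ESPL1, separase itself, was at 4.64, 4.68 and 5.79 RPKM with JunD and 6.10, 5.54 and 5.86 RPKM with the empty vector. JunD replicate 3 overlapped the controls, and the log2 fold change of -0.20 was not called (adjusted p = 0.123). Without JunD replicate 3 it was -0.30 (adjusted p = 0.00934).

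Genes of cytokinesis fell in 4 of 4. ANLN, or anillin, the scaffold of the contractile ring (chromosome 7, 36389806 to 36453791, plus strand), was at 85.2, 82.2 and 65.7 RPKM with JunD and 143, 151 and 163 RPKM with the empty vector. Its log2 fold change was -0.97 (SE 0.11, adjusted p = 6.92e-04). PRC1, which bundles the microtubules between the parting chromosomes, fell from 120.2 ± 8.18 to 68.6 ± 7.34 RPKM (SD, n = 3 each), and its log2 fold change was -0.81 (adjusted p = 8.00e-04). ECT2, the exchange factor that activates RHOA at the ring, changed less. It was at 26.0, 25 and 23.4 RPKM with JunD against 29.7, 31.2 and 30.7 RPKM, with a log2 fold change of -0.30 (adjusted p = 0.00646). RACGAP1, which recruits ECT2 to the spindle, had the tightest JunD libraries relative to its level, at 16.5, 16.4 and 16.1 RPKM, against 26.5, 26.8 and 25.8 RPKM (log2 fold change -0.67, SE 0.05, adjusted p = 1.12e-04).

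Across steps the median log2 fold change was -0.74 for cytokinesis, -0.73 for spindle assembly, -0.66 for the passenger complex, -0.62 for mitotic entry, -0.53 for anaphase onset, -0.39 for the kinetochore and -0.28 for the checkpoint. No test of the differences between steps was made, and each step mixes strongly and weakly changed genes. Among the 30 called genes the JunD mean ran from 38.6% of the empty-vector mean in PLK1 to 85.7% in NUSAP1, with a median of 62.1%. PLK1, CDC20, CDCA3, AURKA, DLGAP5, ANLN and BIRC5 were the 7 below 55%.

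Ratios of RPKM within a library do not depend on library scaling, and 10 pairs of genes were compared in this way. AURKA stood at 3.24 times AURKB with the empty vector and 1.76 times with JunD. The log2 ratios were 0.73, 0.93 and 0.78 in JunD replicates 1 to 3 and 1.58, 1.70 and 1.81 in the controls, a difference of -0.88. CDC20 stood lower against UBE2C with JunD, with log2 ratios of -0.88, -0.79 and -0.82 in its libraries and -0.28, -0.25 and -0.28 in the controls, a difference of -0.56. BUB1 against BUB3 differed by -0.52, NDC80 against SPC24 by -0.41, BIRC5 against INCENP by -0.33, PTTG1 against ESPL1 by -0.30 and NUF2 against SPC25 by -0.13. In these 7 pairs the groups did not overlap, and the exact permutation test, two-sided, gave 0.1 for each. The share of other gene pairs without overlap was not computed. Among the 13379 single genes tested, every JunD library lay below every empty-vector library in 2477 and above in 5196. No smaller p is possible with 3 against 3 libraries, and adjusted over the 10 pairs it was 0.143, so none passed 0.05. In NUF2 against SPC25 the gap was narrow, with the nearest libraries at -0.35 and -0.34. The groups overlapped for BUB1 against BUB1B, with a difference of 0.02 (exact permutation p = 0.9), for CDC25B against CDC25C, 0.05 (exact permutation p = 0.8), and for CENPA against CENPE, 0.19 (exact permutation p = 0.600).

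**Figure D4:**
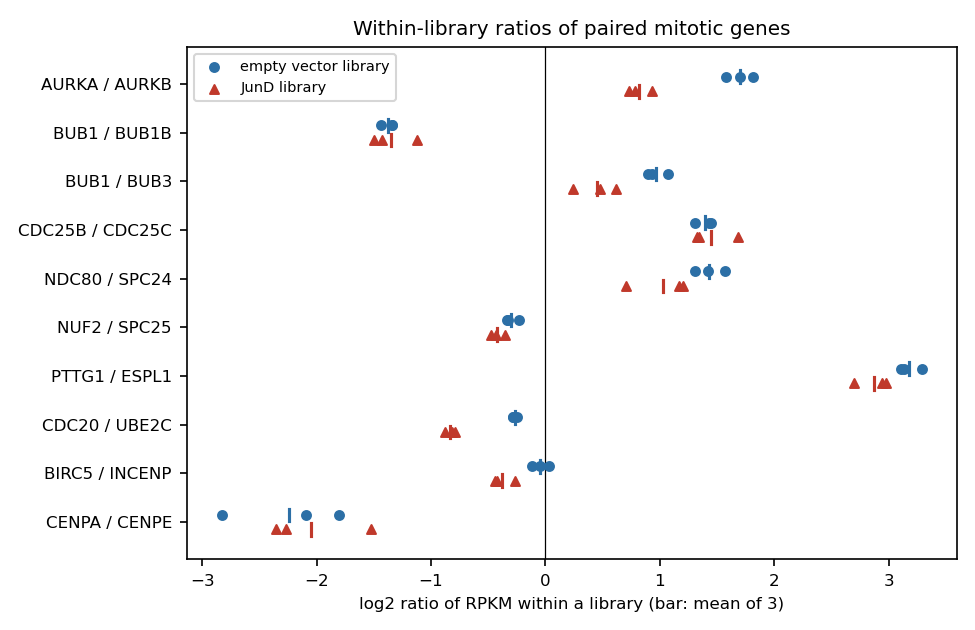
Log2 ratio of the RPKM of the first-named gene to that of the second, within each of 3 JunD (triangles) and 3 empty-vector libraries (circles), with bars at the group means. Triangles and circles are separate in 7 of the 10 pairs, most widely in AURKA against AURKB, where the difference of the means is -0.88. The share over other gene pairs was not computed.

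JunD replicate 3 differed most from the rest of its group, by a median of 0.16 on the log2 scale over the 37 genes, against 0.11 and 0.08 for replicates 1 and 2. The median of the 37 genes, as log2 distance from the control mean, was -0.56, -0.64 and -0.67 in JunD replicates 1 to 3, while all genes tested had medians of 0.08, 0.07 and 0.16. Replicate 3 was the highest JunD library for 16 genes and the lowest for 18. Against the mean of the other JunD libraries it was low in CENPE (-0.49 on the log2 scale), HMMR (-0.44), BUB1B (-0.35) and ANLN (-0.35), and high in CDC25B (0.41), CDC20 (0.40) and UBE2C (0.38). In these 7 genes empty-vector replicate 3 differed from its own group in the opposite direction, by 0.16, 0.04, 0.14, 0.15, -0.07, -0.18 and -0.16. ESPL1, high by 0.29, did not show this (0.01). These genes were chosen after their values were seen, and what sets replicate 3 apart was not tested.

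Genes of the same machinery outside the 37 were less uniform. Of 182 genes in 11 lists, 179 were matched and tested, and 47 (26.3%) were lower and 38 (21.2%) higher, with a median log2 fold change of 0.02. Over all genes tested 14.7% were lower and 31.5% higher, and the share called higher was at or below 31.5% in 9 of the lists, the exceptions being NF-Y (33.3%) and MuvB, DREAM and E2F (52.6%). Condensin, which compacts chromosomes, was lower in 5 of 8 and higher in 0, with NCAPD2 at -0.87, SMC4 at -0.54, NCAPG at -0.41 and NCAPG2 at -0.39 on the log2 scale. SMC4 and NCAPG share 25.6% and 33.1% of their exon length with other genes, mainly TRIM59 and LCORL on the opposite strand. The strand setting is not given, so it is not known whether those reads were told apart. Mitotic cyclins, their kinase and its regulators were lower in 4 of 8, with CCNB1 at -1.32, CCNB2 at -0.87, CCNA2 at -0.40 and CKS2 at -0.44. CKS2 lost its call without JunD replicate 1 or 2 or empty-vector replicate 1 or 2 (adjusted p = 0.0919, 0.0995, 0.0959 and 0.107). The list's 1 higher gene was not called with any single library left out.

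Other cytokinesis genes were lower in 8 of 15 and higher in 2, or 1 without JunD replicate 1 or 2 or empty-vector replicate 1 or 2. Those named by p were the myosins MYH9 (-0.81) and MYH10 (-0.70) and the septins SEPT9 (-0.54) and SEPT2 (-0.32), which cells also use outside division. Spindle pole and gamma tubulin genes were lower in 8 of 26 and higher in 1. The lowest were KNSTRN (-0.94), SPAG5 (-0.81) and TACC3 (-0.69), which work on spindle microtubules beside AURKA and DLGAP5, with TUBGCP2 at -0.33. SPAG5 shares 15.9% of its exon length, mainly with RP11-192H23.4 on the same strand. Other kinetochore and centromere genes were lower in 9 and higher in 5 of 30, or lower in 6 with 1 library left out at the least. HJURP, the chaperone that loads CENPA, had a log2 fold change of -0.59 and CENPT of -0.42. CENPT shares 19.6% of its exon length, mainly with TSNAXIP1 on the opposite strand. CENPQ (1.09) and CENPU (0.46), subunits of the inner kinetochore, rose while all 5 called kinetochore genes of the 37 fell.

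The anaphase promoting complex and its regulators were lower in 6 and higher in 5 of 18, or higher in 2 or 3 with any single library left out. ANAPC15, a subunit that helps release the checkpoint complex, had a log2 fold change of -1.18, and 27.1% of its exon length is shared, mainly with LRTOMT on the opposite strand. ANAPC5 was at -0.35, ANAPC13 at 0.77 and the ubiquitin-conjugating enzyme UBE2D1 at 0.69. Cohesin genes were lower in 1 and higher in 2 of 13, with 6 higher without JunD replicate 3. ESCO1 (0.75) and CDCA5 (0.40) were higher, and RAD21 was at -0.27, a call lost without JunD replicate 2 (adjusted p = 0.0537) and without control replicate 1, 2 or 3 (adjusted p = 0.0503, 0.0809 and 0.0919). Among other checkpoint and shugoshin genes, 1 of 6 was lower, SGO2 (-0.39), and 1 higher, MAD2L1BP (0.44). SGO2 lost its call without control replicate 1, 2 or 3 (adjusted p = 0.0601, 0.109 and 0.106). MAD2L1BP lost its call without JunD replicate 2 or 3 (adjusted p = 0.0830 and 0.0768) and without control replicate 2 or 3 (adjusted p = 0.0899 and 0.103).

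The regulators of cell cycle promoters in the MuvB, DREAM and E2F list and the NF-Y list were not lower as a group. FOXM1, counted with the genes of mitotic entry and not in these lists, was lower (log2 fold change -0.62, limma adjusted p = 2.32e-04). The MuvB, DREAM and E2F list was higher in 10 of 19 (52.6%, against 31.5% of all genes tested) and lower in 1 (5.26%, against 14.7%). The lower count was 2 without JunD replicate 3 or empty-vector replicate 2. The higher count was 7 to 9 with 1 library left out, 7 with the replicate block and 6 with median of ratios. Over all genes tested these gave 3116 to 4375, 2810 and 2878 higher genes, against 4213 in the main fit. E2F7, a repressor among the E2F factors, rose from 7.25 ± 0.279 to 16.4 ± 0.851 RPKM (SD, n = 3 each), and its log2 fold change was 1.12. E2F6 (0.74) and the MuvB subunits LIN52 (0.69) and LIN54 (0.69), of which LIN54 binds the CHR element, were higher too. After quantile normalization 4 of the list were higher (21.1%), near the 19.9% of all genes tested on that scale. Of the 3 NF-Y subunits, NFYC (0.44) was higher and the others were not called. DNA replication genes were close to all genes tested, higher in 10 of 33 (30.3%, against 31.5%) and lower in 4 (12.1%, against 14.7%), with ORC6 at 0.83, GINS3 at 0.61, FEN1 at 0.46 and CDC6 at 0.38. Without empty-vector replicate 2 they were higher in 6, and the lower count was 2 without JunD replicate 1 or 2 or any 1 empty-vector library. Their median was 0.15, against -0.60 for the mitotic genes and 0.10 for all genes tested.

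**Figure D5:**
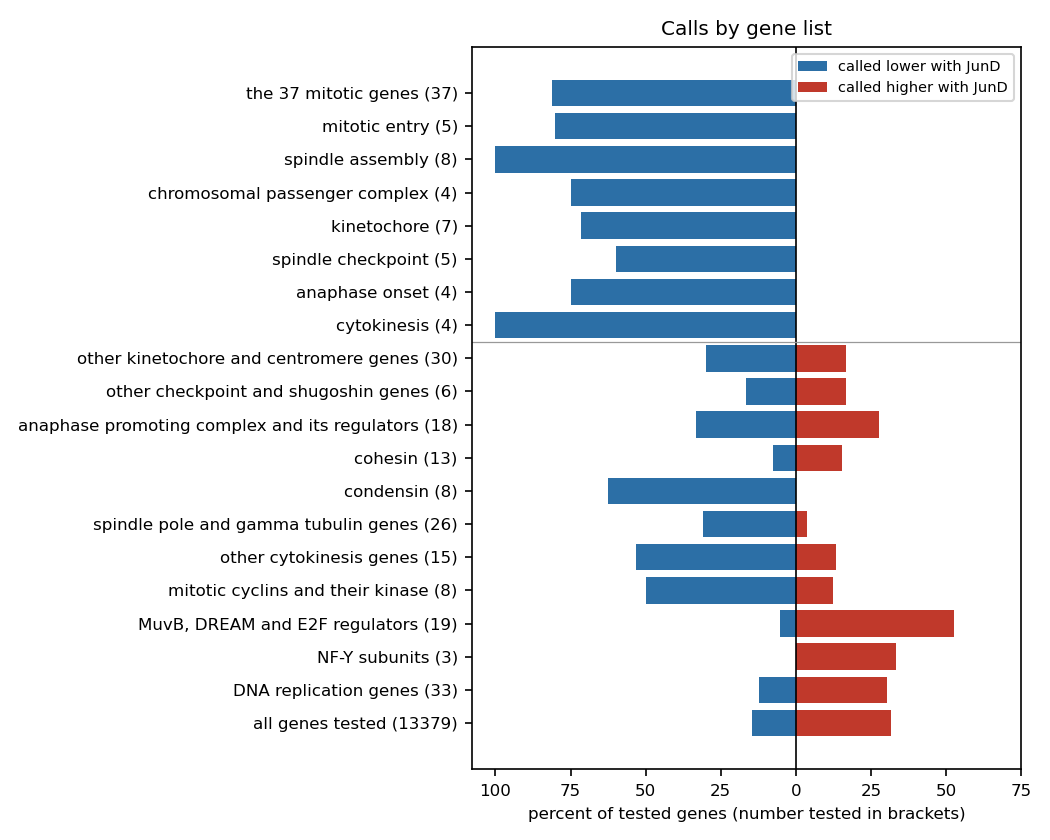
Percent of tested genes called lower (left, blue) and higher (right, red) with JunD, for the 37 mitotic genes, their 7 steps, 11 other lists and all genes tested, with the number tested in brackets. The 37 genes and their steps have bars on the lower side only, while DNA replication genes, 30.3% higher and 12.1% lower, lie near all genes tested, 31.5% and 14.7%.

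The ChIP libraries describe JunD binding near these genes in cells exposed to 8% CSE, with no transfection named. The fold changes come from transfected cells whose CSE concentration is not given, so the conditions may differ. In the authors' deposited table, 2 of the 37 genes (5.41%) had a listed peak within 1 kb of their outermost start, against 7.43% of genes tested. The authors' deposited table places the peak at BIRC5 at chromosome 17, 78213646 to 78214101, 0.085 kb from the start, with a fold enrichment of 2.44, a q-value of 0.566 and a pileup of 6. The peak at BUB1 in the authors' deposited table lay at chromosome 2, 110677788 to 110678038, 0.076 kb from the start, with a fold enrichment of 2.49, a q-value of 0.574 and a pileup of 5. Neither passes a q of 0.05, and with that limit, or with a fold enrichment of at least 4, 0 of the 37 starts had a peak within 1 kb, against 0.479% and 0.816% of genes tested. Within 5 kb, AURKA, TPX2, AURKB and UBE2C were added, making 6 (16.2%), against 20.5%. Counted from RefSeq starts instead, 3 of 29 genes (10.3%) had a listed peak within 1 kb, BUB1, CENPA and NUF2, against 7.79% of tested genes with a RefSeq promoter. In the authors' deposited table the peak near CENPA, 0.721 kb from that start, had a fold enrichment of 3.51, a q-value of 0.178 and a pileup of 8. The one near NUF2, at 0.507 kb, had a fold enrichment of 3.11 and a q-value of 0.316 in the authors' deposited table. Of the 37 genes, 16 (43.2%) held a listed peak anywhere in the gene, against 49.6% of genes tested, whose median span was 24.2 kb against 29.6 kb for the mitotic genes. There was 1 precipitated and 1 input library, so these counts have no replicate check.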

How the data were processed

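RNA was sequenced in 3 JunD and 3 empty-vector libraries of BEAS-2B cells and ChIP DNA in 1 JunD and 1 input library. The authors deposited RPKM per gene, per the file headers, with summed exon length. GRCh38, bedtools 2.25.0, MACS2 2.1.1, Subread 1.5.1 with featureCounts, STAR 2.5.3a and Trimmomatic 0.36 are named, per the submitters' processing notes, without their order or role. The sources used here give neither annotation release nor strand setting. The authors' deposited peak list gives a fold enrichment (ratio), a p-value, a q-value and a pileup (coverage signal) for each peak, per the file headers.

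RPKM times exon length was divided by its smallest non-zero value in each library. This gave whole numbers for 100.0% of genes in every library, within 0.01. They were taken as reads, which assumes that the gene with the smallest value held 1 read. The filter was a mean of 1 RPKM over the 6 libraries. The trended limma test (version 3.58.1, R 4.3.3) was run on log2(RPKM + 0.5), JunD against empty vector with no covariate, two-sided, Benjamini-Hochberg adjusted over all genes tested. The script was tested on simulated data. Pairs were tested with exact permutation in scipy 1.17.1. Sharing of exon bases was counted from the table's coordinates. Planned count models were not run, since the deposited unit is RPKM, and limma voom on recovered reads, added after seeing the data, was run instead. Alternatives were other pseudocounts, no filter, median of ratios, quantile normalization, TPM, a replicate block and leaving out each library.

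Distances to peaks count from the most upstream exon end of each gene, and motif positions from the RefSeq start, taking for each gene the RefSeq promoter nearest to that exon end. Peaks were also counted from RefSeq starts, an alternative chosen after seeing the data. Members and lists were chosen with earlier results of these data known. Named genes were JUND, all 37 members, both genes of each pair and up to 4 called genes of each other list with the smallest p.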

Additional observations from a re-analysis of the deposited data

How the results depend on the processing

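Among all genes tested, 1963 were lower and 4213 higher. After median of ratios 3143 were lower and 2878 higher, after quantile normalization 3252 and 2660, and with the replicate block 1188 and 2810. With 1 library left out, 1333 to 2645 were lower and 3116 to 4375 higher. The count of mitotic genes called higher was 1 in TPM and 0 otherwise, and their median log2 fold change was -0.73 after median of ratios and -0.53 in TPM. With the replicate block 27 mitotic genes were lower, and NUSAP1, CENPE and SPC24 lost their calls (adjusted p = 0.126, 0.0530 and 0.0725). Same-numbered libraries did not deviate together (correlations of -0.17, -0.08 and -0.38 over genes), so the labels' numbers were not taken as pairs. MAD2L1 turned to -0.0041 after median of ratios and -0.02 after quantile normalization. With 1 library left out, the difference of BUB1 against BUB1B ran from -0.09 (no JunD replicate 3) to 0.10 and was -0.01 without empty-vector replicate 3. That of CDC25B against CDC25C ran from -0.07 (no JunD replicate 3) to 0.11. That of CENPA against CENPE ran from -0.10 (no empty-vector replicate 3) to 0.41 and was -0.07 with JunD replicate 3 removed. Listed peaks lay within 5 kb of 6 starts. Within 1 kb, 0 starts had a peak with q below 0.05 and 0 had one with a fold enrichment of at least 4. In the 150 bases before the start, TTTGAA was in 13 of 29 promoters, against 7.33% of all. That window is shorter and leaves out matches across or after the start. The planned tests with edgeR and DESeq2 were not run, since the deposited unit is RPKM, and limma voom on recovered reads took their place. Reads per gene ran from 423 over the JunD libraries in CENPA to 59547 over the empty-vector libraries in ANLN. CENPA also had the largest standard error of the mitotic genes, 0.19. Its empty-vector replicate 3 differed from the other controls by -0.66 on the log2 scale.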

Other observations

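Over all genes tested, promoters with both TTTGAA and CCAAT belonged to genes called lower more often than the rest did, as a description with no test. Of 345 such genes 27.8% were called lower, against 12.7% of 434 with TTTGAA alone, 15.4% of 2786 with CCAAT alone and 14.9% of 4728 with neither. The 16 mitotic genes with both motifs are among the 345, and the median log2 fold change of the 345 was 0.02.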
